A study of Mus musculus with 6 samples.

Results

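The Toll-like receptors (TLRs) other than TLR4 were followed in cultured mouse fibroblastic reticular cells (FRCs), a line of the stromal cell type that builds the scaffold on which lymphocytes move in lymph nodes. The set was taken by name as Tlr1, Tlr2, Tlr3, Tlr5, Tlr6, Tlr7, Tlr8 and Tlr9 with Unc93b1, the chaperone of several of them. This makes 9 of the 55367 symbols counted. Messenger RNA was sequenced from 6 libraries in 3 groups of 2. All cells had spent 96 h, with medium renewed every 48 h, in RPMI that other cells had conditioned for 24 h and that then received 2% serum and antibiotics. The control medium came from FRCs, and the other media came from 67NR or from 4T1 cells, mouse mammary carcinoma lines of common origin that are known as non-metastatic and metastatic. The study concerns TLR4 in lymph node fibroblasts. For the other receptors the comparisons ask which ones these cells transcribe and whether tumour-conditioned medium alters them. All groups share 1 cell line, none received unconditioned medium, and the labels do not say whether libraries of a group were separate cultures, so the tests reflect variation among these libraries, which may be technical.

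Every TLR reads a class of microbial or self molecule with a horseshoe-shaped ectodomain and signals through a cytoplasmic TIR domain. TLR2 works at the cell surface as a heterodimer with TLR1, for triacylated lipopeptides, or with TLR6, for diacylated lipopeptides, and TLR5 binds flagellin. TLR3, TLR7, TLR8 and TLR9 sit in endosomes, where they read double-stranded RNA, single-stranded RNA and CpG DNA. UNC93B1 carries these receptors out of the endoplasmic reticulum. TLR3 signals through the adaptor TRIF (gene Ticam1), and the others named here signal through MyD88.

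Of the 9 genes, 5 were expressed and 4 were at the limit of detection. Total counts per library ran from 13581510 to 21797578, and 1 count was worth 0.0463 to 0.0743 CPM, the count scaled to the size of its library. Tlr2, Tlr3, Tlr1, Tlr6 and Unc93b1 passed the filter on low counts and were tested with 15055 genes in all. Tlr5, Tlr7, Tlr8 and Tlr9 together had 10, 8, 1 and 2 counts over the 6 libraries and were removed by that filter. Fitted without a filter, none of these 4 passed in any comparison (edgeR adjusted p of 0.307 or more). The FRC label was checked against 10 stroma markers. The markers Pdpn, Pdgfra, Pdgfrb, Vcam1, Ltbr, Il7 and Col1a1 were expressed, and Ccl19, Ccl21a and Cxcl13 had no count in any library.

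**Figure D1:**
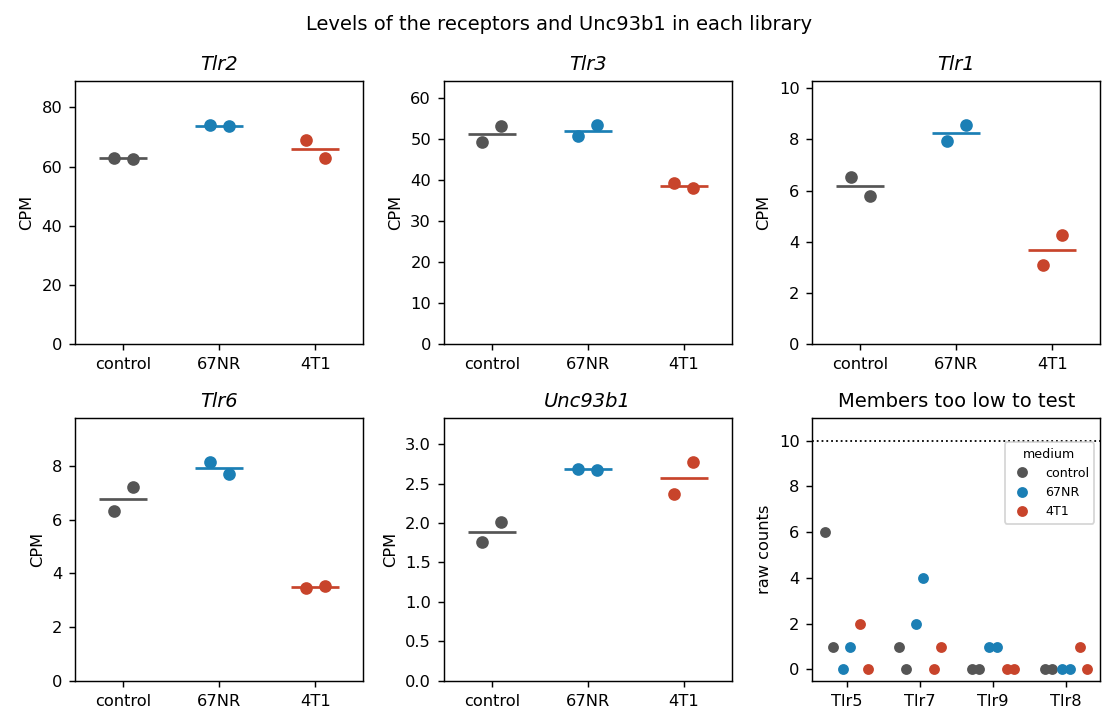
Level of each gene by library; the y axes give CPM for the 5 expressed genes and raw counts for the 4 others, points are libraries, bars are group means, and the dotted line marks the 10 counts used by the filter. Tlr1, Tlr6 and Tlr3 are lowest in both 4T1 libraries, Tlr2 spans 62.5 to 74.1 CPM, and no library holds more than 6 counts of Tlr5, Tlr7, Tlr8 or Tlr9.

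Tlr2 was the most abundant member and moved little. Tlr2 (ENSMUSG00000027995.10, GRCm38 chromosome 3, 83836272 to 83841767, minus strand, 3 exons) stood at 63.0 and 62.5 CPM in the control libraries, 74.1 and 73.6 CPM in 67NR medium and 69.0 and 62.7 CPM in 4T1 medium. The 67NR libraries lay above all others, and the 4T1 libraries overlapped the control range. In 67NR medium Tlr2 was 1.18-fold higher (73.8 ± 0.354 against 62.8 ± 0.369 CPM, mean ± SD, n = 2 per group, log2 fold change 0.23, SE 0.07, edgeR quasi-likelihood adjusted p = 0.0285). This call ended when any of the 4 libraries compared was left out (adjusted p = 0.140 to 0.164) and under DESeq2 (adjusted p = 0.0728). In 4T1 medium the ratio to control was 1.05, with a 95% interval of 0.939 to 1.17 (adjusted p = 0.502). The ratio of 4T1 to 67NR medium was 0.891 (edgeR adjusted p = 0.0794), and it passed without 4T1 replicate 1 (adjusted p = 0.0104).

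Tlr1 and Tlr6, the partners of TLR2, were both lower in 4T1 medium than in control or 67NR medium. They are neighbouring genes on the minus strand of chromosome 5, with 18467 bases between them. Tlr1 (ENSMUSG00000044827.10, 64924679 to 64933563) and Tlr6 (ENSMUSG00000051498.6, 64952031 to 64960097) are also close in sequence. Their longest identical stretch, 229 bases of coding sequence, is shown because reads from it fit both genes, so that the split of counts between them is uncertain. It covers coding bases 1468 to 1696 of the Tlr1 transcript and 1507 to 1735 of the Tlr6 transcript, and is printed 5′ to 3′ from the longest coding transcripts of GENCODE M21 with 30 bases on each side. Capitals mark the identical stretch.
Tlr1: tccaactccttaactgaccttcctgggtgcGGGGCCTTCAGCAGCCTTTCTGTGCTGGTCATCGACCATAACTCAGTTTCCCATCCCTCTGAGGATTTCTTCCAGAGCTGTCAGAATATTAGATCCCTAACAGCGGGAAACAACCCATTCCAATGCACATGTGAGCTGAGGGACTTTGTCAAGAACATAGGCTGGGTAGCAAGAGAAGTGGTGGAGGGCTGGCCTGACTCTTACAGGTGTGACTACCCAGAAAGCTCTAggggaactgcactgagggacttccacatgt
Tlr6: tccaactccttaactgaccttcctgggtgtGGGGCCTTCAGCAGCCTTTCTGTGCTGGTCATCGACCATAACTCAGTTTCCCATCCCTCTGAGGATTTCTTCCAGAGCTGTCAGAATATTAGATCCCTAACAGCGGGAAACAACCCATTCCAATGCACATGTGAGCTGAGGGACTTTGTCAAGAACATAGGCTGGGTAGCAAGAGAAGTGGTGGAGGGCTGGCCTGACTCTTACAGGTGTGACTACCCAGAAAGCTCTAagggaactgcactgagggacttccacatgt

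Of all 50-base windows of the Tlr1 transcript, 15.3% occurred in that of Tlr6, and 12.5% of those of Tlr6 occurred in Tlr1. Neither transcript shared a 50-base window with Tlr2, and Tlr7 shared none with Tlr8 or Tlr9. The read length is not given in the sources used here.

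Tlr1 stood at 6.54 and 5.8 CPM in control, 7.92 and 8.56 CPM in 67NR and 3.11 and 4.25 CPM in 4T1 medium. The 3 groups did not overlap. It was lower in 4T1 than in control medium by a ratio of 0.600 (95% interval 0.452 to 0.796, log2 -0.74, SE 0.19, edgeR adjusted p = 0.0075), a call that ended without control replicate 1 (adjusted p = 0.0703). Against 67NR medium the ratio was 0.452 (0.348 to 0.588, edgeR adjusted p = 0.000153). The 67NR level was 1.33 times the control level (95% interval 1.04 to 1.69) and did not pass (edgeR adjusted p = 0.0794). It did pass when 67NR and control libraries were fitted alone (adjusted p = 0.0392), or without 4T1 replicate 1 (adjusted p = 0.042) or 4T1 replicate 2 (adjusted p = 0.0424).

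Tlr6 stood at 6.33 and 7.21 CPM in control, 8.15 and 7.69 CPM in 67NR and 3.45 and 3.54 CPM in 4T1 medium. Again the 3 groups did not overlap, with 4T1 lowest. The ratio of 4T1 to control was 0.521 (0.403 to 0.672, log2 -0.94, SE 0.17, edgeR adjusted p = 0.000716), and the ratio of 4T1 to 67NR was 0.442 (0.347 to 0.563, edgeR adjusted p = 5.87e-05). Between 67NR and control the ratio was 1.18 with an interval of 0.948 to 1.46 (edgeR adjusted p = 0.253).

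Because the split of reads is uncertain, the counts of Tlr1 and Tlr6 were also summed. The sums were 248 and 175 in control, 347 and 334 in 67NR and 97 and 143 in 4T1 medium. The sum was lower in 4T1 than in control medium (ratio 0.558, log2 -0.84, SE 0.13, edgeR adjusted p = 0.000183) and than in 67NR medium (ratio 0.447, edgeR adjusted p = 5.13e-06). The sum was higher in 67NR than in control medium (ratio 1.25, log2 0.32, SE 0.11, edgeR adjusted p = 0.0479), just under the threshold of 0.05. Neither Tlr1 nor Tlr6 passed alone in that comparison in the main fit. The sum was added after the data were seen and is given under the main settings only.

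The balance within the TLR2 pairs can be read as the share of Tlr6 in the counts of Tlr6 plus Tlr2, which needs no scaling between libraries. That share was 9.13 and 10.3% in control, 9.92 and 9.46% in 67NR, and 4.76 and 5.34% in 4T1 medium. The 95% Wilson intervals of the 4T1 libraries reached up to 6.20 and 6.75%, below the lower bounds of the control libraries, 7.70 and 8.55%. For Tlr1 the share of Tlr1 plus Tlr2 was 9.40 and 8.49% in control, 9.66 and 10.4% in 67NR, and 4.31 and 6.34% in 4T1 medium. Here the interval of 4T1 replicate 2 (5.11 to 7.84%) overlapped that of control replicate 2 (6.85 to 10.5%). These intervals cover counting error only. The leukocyte marker Lyz2 had the same order of media as Tlr1 and Tlr6. It was lower in 4T1 than in control medium (log2 -1.33, edgeR adjusted p = 0.000248) and higher in 67NR medium (log2 0.80, adjusted p = 0.00256), and its part in these results was not tested. Csf1r, the only other leukocyte marker tested, did not pass in any comparison (4T1 against control log2 -0.03, edgeR adjusted p = 0.943).

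Tlr5 (chromosome 1, 182954788 to 182976044), the flagellin receptor, had 6 and 1 counts in control, 0 and 1 in 67NR and 2 and 0 in 4T1 medium. Most of its 10 counts came from control replicate 1. The ratio of 67NR to control was 0.111 with a 95% counting interval of 0.00246 to 0.863, and fitted without a filter Tlr5 did not pass in that comparison (edgeR adjusted p = 0.307).

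Among the endosomal receptors, Tlr3 was well expressed and fell in 4T1 medium. Tlr3 (ENSMUSG00000031639.12, chromosome 8, 45395665 to 45411080, minus strand) stood at 49.3 and 53.1 CPM in control, 50.6 and 53.4 CPM in 67NR and 39.3 and 37.9 CPM in 4T1 medium. Both 4T1 libraries lay below the other 4, while control and 67NR overlapped. The ratio of 4T1 to control was 0.754 (0.671 to 0.849, log2 -0.41, SE 0.08, edgeR adjusted p = 0.00116) and of 4T1 to 67NR 0.742 (0.661 to 0.833, edgeR adjusted p = 0.000531). Between 67NR and control the ratio was 1.02, with an interval of 0.908 to 1.14 (edgeR adjusted p = 0.851). The gene Gm45542, on the opposite strand, overlaps 7.32% of the exon bases of Tlr3 and had 3 counts in all.

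Tlr7, Tlr8 and Tlr9, the receptors for single-stranded RNA and CpG DNA, were close to absent. Tlr7 (chromosome X, 167304929 to 167330558) had 1 and 0 counts in control, 2 and 4 in 67NR and 0 and 1 in 4T1 medium. The ratio of 67NR to control for Tlr7, 4.66, had a counting interval of 0.565 to 214, so a difference was not detectable at this depth. Tlr8 (chromosome X, 167242696 to 167264329) had 1 count, in 4T1 replicate 1. Tlr9 (chromosome 9, 106222598 to 106226883) had 1 count in each 67NR library and none elsewhere. A group sum of 0 allows up to 3 counts, which is 0.0917 CPM in control, 0.0712 CPM in 67NR and 0.0905 CPM in 4T1 medium.

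Unc93b1 (ENSMUSG00000036908.17, chromosome 19, 3935186 to 3949340, plus strand), needed by the endosomal receptors and by TLR5, was expressed at a low level. It stood at 1.77 and 2.01 CPM in control, 2.69 and 2.68 CPM in 67NR and 2.37 and 2.78 CPM in 4T1 medium. All 4 tumour medium libraries lay above both control libraries. The ratios to control were 1.43 in 67NR (0.998 to 2.06, edgeR adjusted p = 0.132) and 1.38 in 4T1 medium (0.948 to 2.01, edgeR adjusted p = 0.163), and neither passed. With 27 to 58 counts per library, the intervals of both ratios reach from just below 1 to above 2.

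**Figure D2:**
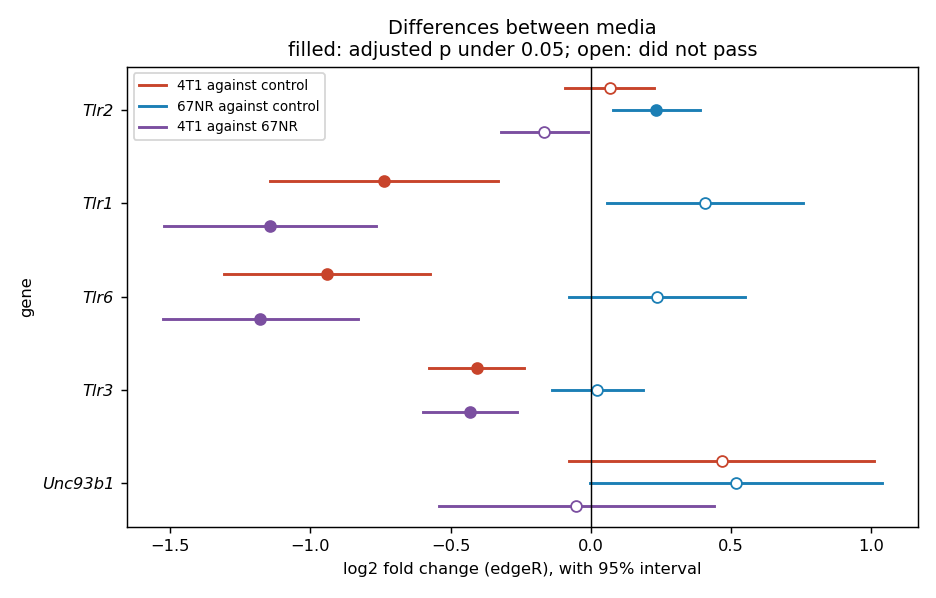
Log2 fold change (x axis) of the 5 expressed genes in the 3 comparisons of media, from the edgeR fit of all genes; bars are 95% intervals and filled points passed the adjusted p threshold of 0.05. The red and purple intervals of Tlr1, Tlr6 and Tlr3 lie below 0, as does the purple interval of Tlr2. The blue intervals of Tlr2 and Tlr1 lie above 0. The purple point of Tlr2 and the blue point of Tlr1 are open.

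In number, 3 of the 5 tested members were lower and none higher in 4T1 than in control medium, against 19.2% lower, 19.9% higher and 39.1% called in either direction among all genes tested. In 67NR medium, 1 of 5 was higher and none lower than in control, where 13% of all genes were higher, 14.6% lower and 27.6% called. Between 4T1 and 67NR medium, 3 of 5 were lower and none higher, where 19.9% of all genes were lower, 23.5% higher and 43.4% called. With 5 genes, these counts describe the members and are not set against chance. The comparisons with control share the control libraries, and the 2 comparisons of 4T1 medium share the 4T1 libraries. In these bulk libraries, fewer cells with a transcript and less of it per cell cannot be told apart.

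To compare levels between genes, CPM were divided by the kilobases of exon in GENCODE M21. On this scale the order in control medium was Tlr2 (20.8 ± 0.122 CPM per kilobase), Tlr3 (9.84 ± 0.519), Tlr4 (4.50 ± 0.216), Tlr1 (1.84 ± 0.157) and Tlr6 (1.82 ± 0.166), with Unc93b1 at 0.622 ± 0.0563. Tlr1 and Tlr6 did not differ beyond their spread. In 4T1 medium Tlr4 reached 7.51 ± 1.26 and Tlr3 fell to 7.41 ± 0.185 CPM per kilobase, which no longer separates them. Tlr4 itself was at 25 ± 1.2 CPM in control and 41.7 ± 7.01 CPM in 4T1 medium (edgeR adjusted p = 0.000217).

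The summed level of all TLR genes other than the 3 remaining mouse receptors Tlr11, Tlr12 and Tlr13 was 38.8 and 39.0 CPM per kilobase in control, 43.6 and 44.7 in 67NR and 39.0 and 38.7 in 4T1 medium. Control and 4T1 medium thus had the same range of summed level with another composition. Tlr3 made up 24.4 and 26.2% of it in control and 19.4 and 18.8% in 4T1 medium, and Tlr4 made up 12.0 and 11.2% against 17.0 and 21.7%. Tlr1 and Tlr6 each went from between 4.38 and 5.04% to between 2.37 and 3.28%, and Tlr2 made up 53.9 and 53.2% in control and 58.8 and 53.7% in 4T1 medium, so that the groups overlapped. With the length of the longest coding transcript in place of all exon bases, the share of Tlr4 was 14.4% in control and 23.8% in 4T1 medium, and that of Tlr3 was 27.3 and 20.3%. Tlr11 had no counts, Tlr12 had 1 and 2 counts in control replicate 1 and 67NR replicate 2, and Tlr13 had 1 count in each of control replicate 1 and 4T1 replicate 1. Cd180, a receptor relative without a TIR domain, had 2 and 1 counts in control and none elsewhere.

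**Figure D3:**
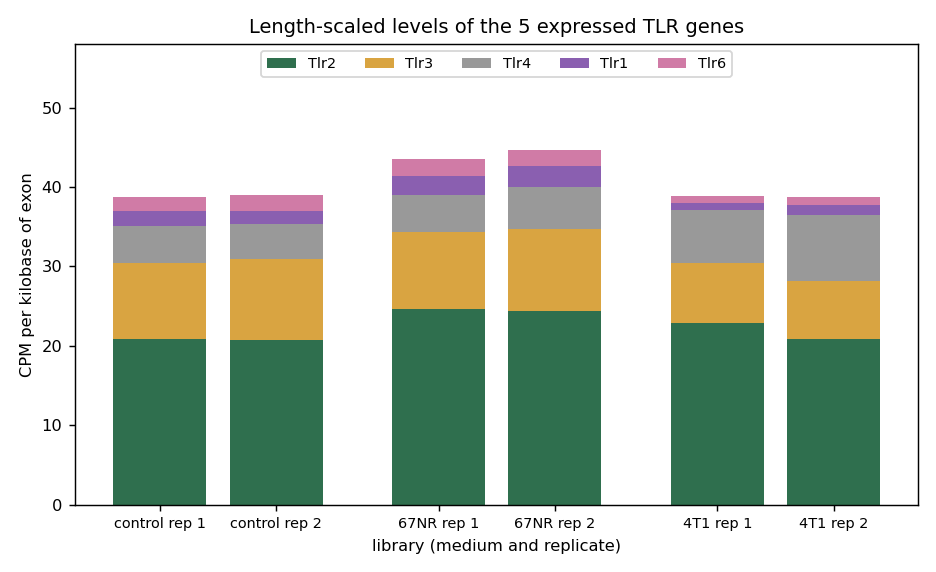
Length-scaled level (CPM per kilobase of exon, y axis) of Tlr2, Tlr3, Tlr4, Tlr1 and Tlr6, stacked for each of the 6 libraries. The stacks of control and 4T1 medium are of like height, near 39.0, and in 4T1 medium the grey Tlr4 part is thicker and the Tlr3, Tlr1 and Tlr6 parts thinner.

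Tlr3 is known as an interferon-inducible gene in many cells, and such genes rose in 67NR medium here. A list of 10 interferon-inducible genes, chosen with earlier results of these data known, is set beside Tlr3. All 10 rose in 67NR medium (median log2 2.89, against 0.00 for all genes tested), where 13% of all genes were higher. Examples were Oasl2, Bst2, Isg15 and the signalling factor Irf9, which rose by 3.60, 2.33, 2.98 and 1.43 on the log2 scale (edgeR adjusted p = 4.57e-08, 5.44e-08, 2.72e-07 and 5.51e-07). Irf7, the factor that relays TLR7 and TLR9 signals to interferon genes, rose from 3.89 ± 0.284 to 23.6 ± 1.40 CPM. The log2 fold change of Tlr3 in the same libraries was 0.02, and the upper bound of its interval, 0.19, lay below every gene of that list. In 4T1 medium, 6 of the 10 rose and none fell (median log2 0.82), where 19.9% of all genes were higher and 19.2% lower. Tlr3 fell there by 0.41 on the log2 scale.

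Tlr2 is known as a target of NF-kB, the factor that TLR signals activate. The 10 NF-kB-inducible genes set beside Tlr2 were chosen with earlier results of these data known. Of these, 9 were tested, and 9 rose in 4T1 medium (median log2 2.65, against 0.01 for all genes tested), where 19.9% of all genes were higher. Lcn2, Il6, Cxcl1 and Vcam1 rose by 10.38, 5.33, 2.45 and 1.61 on the log2 scale (edgeR adjusted p = 8.19e-15, 1.69e-11, 2.52e-11 and 8.49e-10), whereas the log2 fold change of Tlr2 was 0.07 with an upper bound of 0.23. Tnfaip3, an NF-kB target counted below among the inhibitors and not in this list, fell in 4T1 medium (log2 -1.21). In 67NR medium, 1 of the 9 rose, Nfkbia (log2 0.48), and 1 fell, Ccl2 (log2 -0.89), where 13% of all genes were higher and 14.6% lower.

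**Figure D4:**
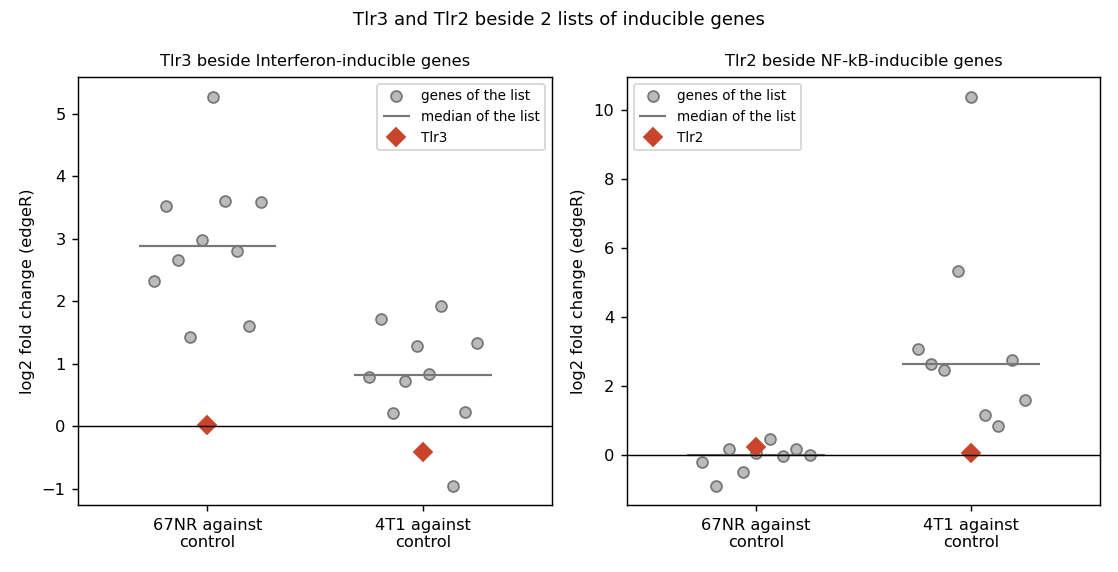
Log2 fold changes against control medium (y axis) of Tlr3 beside 10 interferon-inducible genes and of Tlr2 beside 9 NF-kB-inducible genes; grey points are genes of the list, lines their medians, and red diamonds the receptor. Tlr3 lies at 0.02 in 67NR medium below all list genes, and Tlr2 at 0.07 in 4T1 medium below all list genes. Both lists were chosen with earlier results of these data known.

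Promoter sequence is shown for these receptors because their own changes were smaller than those of the lists beside them, or opposite. RefSeq promoters (GRCm38.p6, 250 bases before to 50 after a start) were given for 7 of the 9 genes, 9 windows in all, and were searched on both strands for the interferon-stimulated response element core GAAANNGAA, the STAT motif TTCNNNGAA and the kappaB consensus. Of all 32851 promoter windows of this length, 8.56, 8.30 and 8.46% held these motifs. The Tlr2 window held 2 overlapping kappaB matches, from base -173 to -163, and another from -8 to 2. The Tlr3 window held 1 kappaB match, starting at base -211, and no match of the other motifs, which says only that these letters are not in this window. Among the list genes with a promoter window, 5 of 7 interferon-inducible genes held the response element core and 5 of 8 NF-kB-inducible genes a kappaB match. Printed are the 91 bases of Tlr2 before every annotated start (chr3:83841768-83841858, minus strand), the 72 bases before the RefSeq start of Tlr3 (chr8:45410381-45410452, minus strand) and 30 bases around the Tlr3 match (chr8:45410572-45410601, minus strand), with kappaB matches in capitals. Both Tlr3 stretches lie inside the gene as GENCODE M21 annotates it, whose outermost start is at 45411080.
Tlr2: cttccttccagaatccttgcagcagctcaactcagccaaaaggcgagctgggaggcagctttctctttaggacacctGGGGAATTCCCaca
Tlr3 start: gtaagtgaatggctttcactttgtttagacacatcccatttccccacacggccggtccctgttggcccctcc
Tlr3 match: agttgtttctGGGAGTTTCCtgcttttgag

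In the windows of the partner receptors, 1 of the Tlr6 windows held 2 overlapping response element cores (bases -115 to -101) and the other held 2 STAT motifs, and 1 of the Tlr1 windows held 1 STAT motif. The window of Tlr8, which had 1 count, held 1 response element core and 1 STAT motif. These matches are descriptions of the sequence.

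The adaptors that these receptors use did not move alike. Myd88 rose from 27.3 ± 0.973 CPM in control to 34.5 ± 2.36 in 67NR (edgeR adjusted p = 0.011) and 55.5 ± 2.63 in 4T1 medium (adjusted p = 8.22e-07). Tirap, which bridges TLR2 and TLR4 to MyD88, rose from 14.1 ± 0.719 to 18.8 ± 1.45 CPM in 4T1 medium (log2 0.43, edgeR adjusted p = 0.00763). Ticam1, the adaptor of TLR3, fell together with Tlr3 in 4T1 medium, from 29.9 ± 3.01 to 23.0 ± 1.45 CPM (log2 -0.38, edgeR adjusted p = 0.00724). Sarm1 was at 1.08 ± 0.161 CPM in control and 1.85 ± 0.230 in 4T1 medium and did not pass (adjusted p = 0.0685), and Ticam2 had 0 to 4 counts per library and was not tested.

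Among the surface co-receptors, 2 of 3 tested genes rose in 4T1 medium, where 19.9% of all genes were higher. Cd14 and Lbp, which also hand lipopeptides to TLR2, rose by 3.24 and 7.98 on the log2 scale in 4T1 medium (edgeR adjusted p = 5.86e-08 and 5.92e-12). In 67NR medium Lbp rose by 1.14 (adjusted p = 0.0313), and the log2 fold change of Cd14 was -0.52 (adjusted p = 0.239). Ly96, the TLR4 partner, did not pass in any comparison, and Cd36, a co-receptor of the TLR2 and TLR6 pair, had no count in any library.

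Of 11 genes that fold, carry or cleave TLRs, 9 were tested, and in 4T1 medium 4 rose and 2 fell, where 19.9% of all genes were higher and 19.2% lower. Of 5 proteases that can cut endosomal receptors, 3 rose, Ctss had no count and Ctsk had 2 to 6 counts per library and was not tested. Ctsb was at 523 ± 5.65 against 1081 ± 15.4 CPM (edgeR adjusted p = 3.24e-08), and Lgmn and Ctsl were higher by 0.57 and 0.61 on the log2 scale. Hsp90b1, the chaperone gp96 that most TLRs need, fell from 1585 ± 29.0 to 904 ± 0.317 CPM (log2 -0.81, adjusted p = 3.33e-07), while its partner Cnpy3 had a ratio near 1 (log2 0.07, adjusted p = 0.508). In 67NR medium 1 rose, Ctsb (log2 0.65), and 1 fell, Lrrc59 (log2 -0.43), where 13% of all genes were higher and 14.6% lower. Between the tumour media, 4 were higher and 1 lower in 4T1, where 23.5% of all genes were higher and 19.9% lower. Of 8 genes for endosomal ligand supply and the TLR7 to TLR9 scaffold, 7 had a row and 4 were tested, namely Pld3, Rnaset2b, Dnase2a and Slc15a4. None of the 4 passed in 4T1 medium, where 39.1% of all genes were called. Pld3, a nuclease that trims TLR9 ligands, rose in 67NR medium from 66.6 ± 0.256 to 91.4 ± 3.97 CPM (log2 0.46, edgeR adjusted p = 0.000279).

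Of 16 kinases, ligases and factors that act after the adaptors, 4 rose in 4T1 medium and none fell (median log2 0.06), where 19.9% of all genes tested were higher and 19.2% lower. The 4 were Tab2, Irf7, Traf3 and Irak2, by 0.40, 0.93, 0.29 and 0.27 on the log2 scale (edgeR adjusted p = 0.000289, 0.00672, 0.0275 and 0.0315). In 67NR medium Irf7 alone passed of the 16, where 27.6% of all genes were called. Among 6 inhibitors, 4 were tested. Tnfaip3, the ubiquitin-editing enzyme A20, fell in 4T1 medium from 192 ± 5.48 to 83.1 ± 11.2 CPM (log2 -1.21, edgeR adjusted p = 1.43e-07) and in 67NR medium to 154 ± 3.45 CPM (log2 -0.32, adjusted p = 0.0104). Tank and Rnf216 rose in 4T1 medium by 0.48 and 0.29 on the log2 scale, Rnf216 rose in 67NR medium by 0.22 (adjusted p = 0.0385), and Tollip did not pass in any comparison.

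By the rule for likeness, the root mean square difference of centred log2 CPM over the 6 libraries, Tlr6 was closest to Mbnl1, Fhl1 and Frmd6 (0.05, 0.0532 and 0.0621), and Tlr1 to Ogdhl, Stard9 and Slc26a2 (0.0657, 0.0793 and 0.0839). Tlr3 was closest to Mkln1, Canx and Sel1l (0.0252, 0.0346 and 0.0380), Tlr2 to Rhog, Rab5b and Cbx8 (0.0114, 0.0136 and 0.0177), and Unc93b1 to Gigyf1, Ddx17 and Zfp937 (0.0444, 0.0557 and 0.0558).

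Leukocytes carry several of these receptors, so their markers were read in the same libraries. Of 14 leukocyte markers, 7 had no count in any library, among them Adgre1, Spi1, Tyrobp and Siglech, and Ptprc had 1 count in all. The summed level of the list was 6.70 to 7.65 CPM in control, 11.3 to 12.0 CPM in 67NR and 3.92 to 4.63 CPM in 4T1 medium, nearly all of it Lyz2 and Csf1r, the only list genes tested. Lyz2 was at 5.25 ± 0.884, 8.99 ± 0.191 and 2.04 ± 0.202 CPM and Csf1r at 1.73 ± 0.344, 2.25 ± 0.224 and 1.72 ± 0.0487 CPM in control, 67NR and 4T1 medium. Epithelial markers summed to 2.01 to 2.39 CPM in control, 1.58 to 1.70 in 67NR and 0.218 to 0.811 in 4T1 medium, with Epcam at 0 in every library. Endothelial markers summed to 14.0 to 15.9, 23.3 to 26.1 and 34.2 to 35.6 CPM, most of it Emcn, which rose in 4T1 medium (log2 1.49, edgeR adjusted p = 1.1e-07). Kdr and Tek fell there (log2 -5.00 and -2.39, edgeR adjusted p = 0.000468 and 0.00279), Pecam1 did not pass, and Cdh5 had 0 to 6 counts per library.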

How the data were processed

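Poly(A) RNA of 1 FRC line was made into directional libraries from 500 ng of total RNA and sequenced on an Illumina NextSeq500, per the labels' protocols. The authors deposited raw counts per gene symbol. Per the submitters' processing notes these came from Subread on mm10, with DESeq2 1.32.0 also named; the strand setting of the counting is not given in the sources used here. The unfiltered table was used. Low genes were removed in edgeR 4.0.16 (filterByExpr, with a count of at least 10 and a total of at least 15). Counts were scaled by trimmed mean of M-values and fitted with all 6 libraries in 1 quasi-likelihood model, with Benjamini-Hochberg adjustment over 15055 genes and a threshold of 0.05. CPM use the scaled library totals. Intervals of fold changes are 95%, and intervals and floors of counts cover counting error only. Gene positions and lengths come from GENCODE M21 (GRCm38, the assembly of mm10).

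The members and the 13 gene lists were chosen with earlier results of these data known. The rule for names took all 9 members, up to 4 genes of each list by smallest adjusted p, lists of 5 or fewer in full, and the 3 tested genes most like each tested member. Cnpy3 and single cell type markers fall outside this rule and were chosen after their values were seen. Ctss, Ctsk and the grouping of the proteases fall outside it too. Tasl had no row under that symbol. Each test of a member was repeated with no filter, with scaling by DESeq2 size factors or by totals only, and with a stricter filter. It was also repeated with the 14629 symbols of the filtered table, the replicate block and the 2 groups compared alone. DESeq2 1.42.0, limma-voom (limma 3.58.1) and each library left out were the other settings. Tests of list genes and of the Tlr1 and Tlr6 sum are given from the main settings only. Summing Tlr1 and Tlr6 and the other gene length were added after the data were seen. Replicates of a group differed by more than counting noise (chi-square per degree of freedom 4.13, 4.23 and 8.05 in control, 67NR and 4T1 medium). The fitting script was tested on simulated data. Fits used R 4.3.3, and figures Python 3.11.15 with matplotlib 3.10.9.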

Additional observations from a re-analysis of the deposited data

How the results depend on the processing

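Over the 15 alternatives fixed for each of 15 member results, 211 of 225 values kept their direction and their side of the threshold. Of the others, 6 lost the threshold, 4 gained it and 4 changed sign. Of 5 members, 2, 4 and 2 did not pass in the main fit of 4T1 against control, 67NR against control and 4T1 against 67NR. Many kept values thus stayed above the threshold, and some alternatives left out a library outside the comparison. The falls of Tlr3 and Tlr6 in 4T1 medium, against control and against 67NR medium, held in all 15, as did the fall of Tlr1 against 67NR. With the DESeq2 Wald test, 3 of 5 members were called in either comparison of 4T1 medium. In 4T1 against control it called 4410 genes, and the main fit 5888. In 67NR against control, 2 members and 5325 of 14802 genes were called when only the 2 groups compared were fitted. The DESeq2 Wald test called 0 members there, with Tlr2 at adjusted p = 0.0728, and 2980 of 15055 genes. The main fit called 1 member and 4150 genes. The number of members called there also changed with a library left out. Leaving out a library gave 2227 to 5336 genes called in that comparison, against 4150; with 1 library of a group gone, the lone library is assumed to vary like the others. The sign changes were all in values that did not pass. They were the log2 fold change of Tlr2 in 4T1 against control (-0.0124 to 0.13 with a library left out), of Tlr3 in 67NR against control (-0.0348 to 0.0743) and of Unc93b1 in 4T1 against 67NR (-0.18 to 0.0424). The cause of these changes was not tested. With the replicate block, 3, 1 and 3 members were called in 4T1 against control, 67NR against control and 4T1 against 67NR, and 6057, 4382 and 6668 genes; no member's call changed. Deviations of same-numbered libraries correlated at -0.02, 0.00 and 0.06 between groups, so no strong shared replicate effect was visible. Such correlations cannot show whether same-numbered cultures were handled together, and the labels do not say. Depth limits Unc93b1, Tlr5, Tlr7, Tlr8 and Tlr9 most.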
